A study of Mus musculus with 10 samples.

Results

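The 10 genes described here encode enzymes that turn cholesterol into bile acids and couple them to taurine or glycine. They were read in livers of 10 male B6C3F1/Crl mice (C57BL/6 male x C3H/He female), of which 5 drank phenobarbital (0.05% w/v in the water) during 28 days and 5 were controls. On arrival the mice had an age of 29 to 32 days, and they settled for 5 days before random division into the 2 groups. Phenobarbital is a barbiturate that activates the nuclear receptor CAR in hepatocytes and is a non-genotoxic carcinogen of the rodent liver. Each liver was hybridised to its own Affymetrix array, and the value of a probe set (a group of short probes for a transcript) is a log2 expression level, so that a difference of 1 is 2-fold. A probe set was taken as a member where the platform annotation gave it the symbol of Cyp7a1, Cyp8b1, Cyp27a1, Cyp7b1, Hsd3b7, Akr1d1, Amacr, Acox2, Slc27a5 or Baat. All 10 genes were found, on 16 of 45101 probe sets, and no member probe set carried a second symbol. Each of the 18193 genes tested, members included, was read from its brightest probe set, and all 10 members lay in the brighter part of the genes, above the median gene level of 6.42.

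Bile acids are made in hepatocytes along a pair of routes. The classical route starts with Cyp7a1, which hydroxylates the ring of cholesterol and sets the rate of the route, and its later enzyme Cyp8b1 adds the hydroxyl group that makes cholic acid. The alternative route starts with the mitochondrial Cyp27a1, which oxidises the side chain, and continues with Cyp7b1, which hydroxylates the ring of the resulting oxysterols. Both routes share the ring enzymes Hsd3b7 and Akr1d1, the peroxisomal side chain enzymes Amacr and Acox2, the acyl-CoA synthetase Slc27a5 and the conjugating enzyme Baat, which in mice uses mainly taurine.

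In livers of phenobarbital-treated mice Akr1d1 was 1.42-fold higher, and Cyp7b1 and Amacr were lower, at 0.707 and 0.857 of the control level. The other 7 genes did not pass the test, among them both enzymes of the classical route. Thus 3 of 10 members passed limma at an adjusted p of 0.05, where 20.3% of all genes and 29% of the brighter genes did. The share of members called was near that of the brighter genes. The 29% is from a fit of the 9095 brighter genes alone, in which 3 members were also called. Those genes are all that lie above 6.42 and were not matched to the levels of the members. Of the members 1 was called higher, beside 9.02% of all genes, and 2 were called lower, beside 11.3%. Treated and control livers were fully separate in 2 members, Akr1d1 and Amacr, and in 12.9% of all genes. The median log2 change of the members was -0.05, beside 0.008 over all genes and -0.04 over the brighter genes.

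The arrays fall into sets that bear on every value below. The mean of the poly-A spike-ins, bacterial transcripts added before labelling, was 5.76 to 6.58 on the 5 phenobarbital arrays, against 6.40 on control replicate 4 and 7.77 to 8.64 on the other controls. The 3' minus 5' difference of beta-actin divided the arrays in the same way. It was 1.19 to 1.33 in the treated group, 1.28 on control replicate 4 and 1.46 to 1.78 on the other controls. That of Gapdh was -0.28 to -0.21 in treated livers and -0.15 to -0.03 in controls, with control replicate 4 among the other controls. With the spike-in set as a block, which in effect compares the treated livers with control replicate 4 alone, 0.786% of all genes passed and none of the 10 members did, while 3 members and 2425 of 18193 genes had an unadjusted p under 0.05. The treatment check Cyp2b10 averaged 13.52 ± 0.04 in treated and 6.47 ± 0.66 in control livers (SD, n = 5 each). The 5 measured hepatocyte markers had a mean level of 14.24 to 14.40 in treated and 14.33 to 14.40 in control livers, with none called, while the mean of the kidney markers was 4.42 to 4.55 in treated and 4.28 to 5.39 in control livers. The 5.39 was that of control replicate 2, where Kap read 7.76 and Umod 4.36, above the other controls. Without that animal Akr1d1, Cyp7b1 and Amacr still passed. Of other cell types, Epcam among 5 bile duct markers was called higher, and 2 of 4 stellate and 2 of 3 endothelial markers lower, where 20.3% of all genes were called. Mean log2 levels over each list were 4.93 to 5.05 (bile duct), 7.51 to 7.93 (stellate) and 7.39 to 7.65 (endothelial) in treated livers. In controls they were 4.78 to 5.12, 7.90 to 8.14 and 7.57 to 8.01. Among 3 measured periportal hepatocyte markers Pck1 was lower (log2 change -1.11, limma adjusted p = 0.00635), and none of 4 pericentral markers was called. Among 3 ileum markers Slc10a2 was higher (0.68, limma adjusted p = 0.00737). With the spike-in set as a block Pck1 had -0.92, Slc10a2 0.61 and Epcam 0.19. The part of these differences in the results was not tested. In whole liver RNA, fewer cells of a type and less RNA per cell cannot be told apart.

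**Figure D1:**
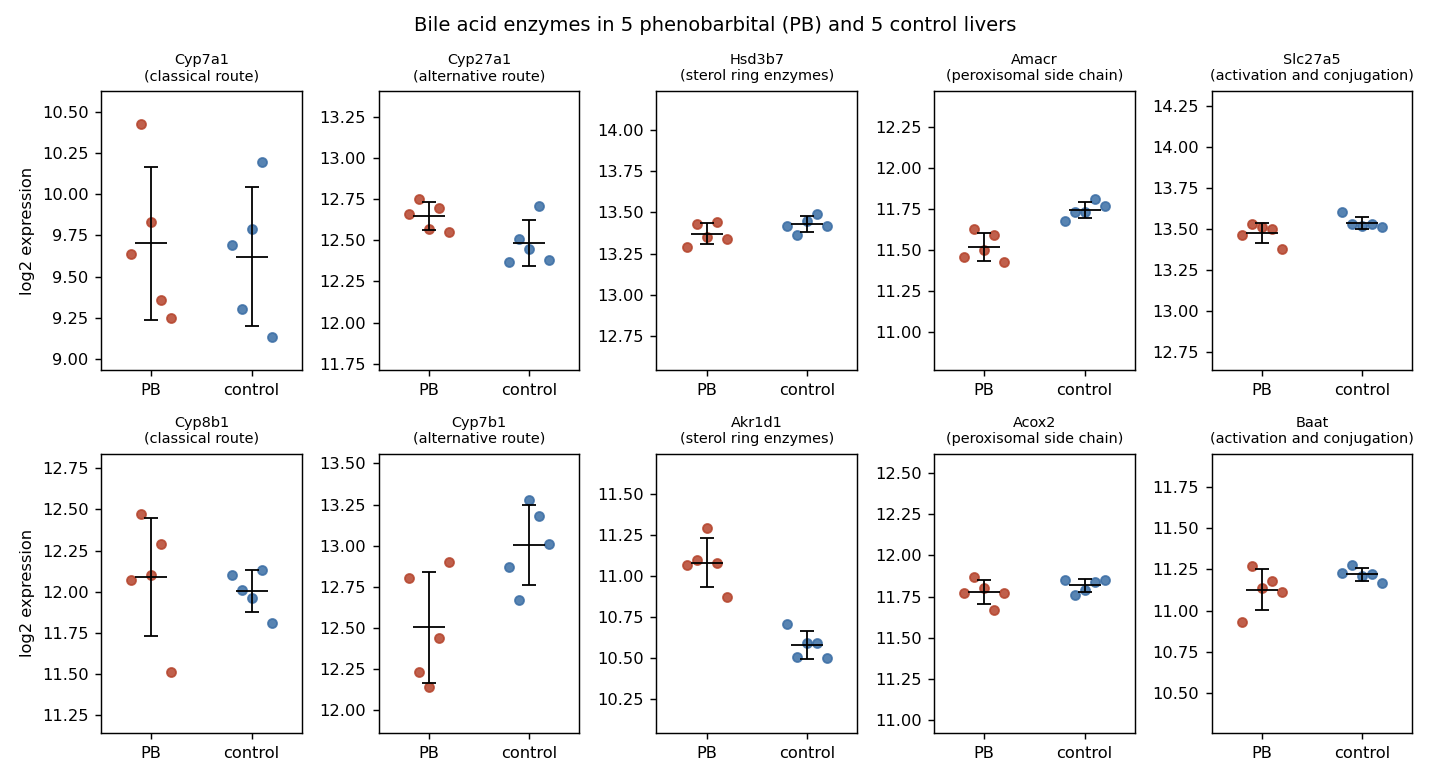
Log2 expression of the 10 genes in each liver, with phenobarbital (PB) on the left and control on the right of each panel. Points are animals in replicate order, the bar is the mean and the whiskers 1 SD (n = 5), and all panels span the same range of log2 units. The groups are separate for Akr1d1 and Amacr, and the spread between animals is widest for Cyp7a1.

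Cyp7a1, the first enzyme of the classical route, varied widely between animals of either group. Its log2 level was 9.64, 10.43, 9.83, 9.36 and 9.25 in phenobarbital replicates 1 to 5, against 9.69, 9.30, 9.79, 10.20 and 9.13 in control replicates 1 to 5. The highest liver of each group, phenobarbital replicate 2 and control replicate 4, stood well above its neighbours, and the groups overlapped over nearly their whole range. The log2 change was 0.08, with a 95% confidence interval of -0.41 to 0.57 (limma adjusted p = 0.831), so neither a modest rise nor a modest fall could be told from the spread. A dimmer probe set of Cyp7a1 had log2 levels of 7.94, 8.29, 8.07, 7.77 and 7.08 in treated livers, against 8.15, 7.91, 8.50, 8.27 and 7.69 in controls. It had the opposite sign, a log2 change of -0.27 with an interval of -0.72 to 0.17, and did not pass either (limma adjusted p = 0.371 over all probe sets singly). The mean of both probe sets gave -0.10, and leaving out control replicate 2, control replicate 5 or phenobarbital replicate 2 turned the sign as well (-0.0005, -0.04 and -0.10). With the spike-in set as a block the log2 change was -0.50 and with the spike-in mean as a covariate -0.21, neither passing (adjusted p = 0.589 and 0.869).

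Cyp8b1, the later enzyme of the classical route, followed Cyp7a1 in its extremes among treated livers. Cyp8b1 had log2 levels of 12.07, 12.47, 12.10, 12.29 and 11.51 in phenobarbital replicates 1 to 5, against 12.10, 12.01, 11.96, 12.13 and 11.81 in the controls. Phenobarbital replicate 2 was the highest and phenobarbital replicate 5 the lowest of the treated livers for both genes, and control replicate 4 the highest and control replicate 5 the lowest of the controls. The SD of Cyp8b1 was 0.36 in treated livers and 0.13 in control livers. The log2 change of 0.09 did not pass (95% confidence interval -0.22 to 0.40, limma adjusted p = 0.704), and it was -0.0095 without phenobarbital replicate 2.

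Promoter windows of 250 bases before to 50 bases after the gene start were held by the RefSeq table (GRCm38.p6) for 5 of the 10 members. Those of Cyp8b1 and Akr1d1 are shown, as a classical route gene that did not pass the test and as the member that rose. Capitals mark, on either strand, AGGTCA (the half-site of many nuclear receptors), CAAAGTCCA (a motif of the hepatocyte factor HNF4A) and TATAAA (the TATA box).
Cyp8b1, chr9:121916256-121916555, minus strand: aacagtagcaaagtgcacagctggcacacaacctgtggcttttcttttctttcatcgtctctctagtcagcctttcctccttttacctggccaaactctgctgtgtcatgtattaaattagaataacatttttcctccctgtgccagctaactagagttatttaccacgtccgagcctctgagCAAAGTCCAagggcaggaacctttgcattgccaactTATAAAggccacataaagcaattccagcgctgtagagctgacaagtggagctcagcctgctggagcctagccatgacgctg
Akr1d1, chr6:37529923-37530222, plus strand: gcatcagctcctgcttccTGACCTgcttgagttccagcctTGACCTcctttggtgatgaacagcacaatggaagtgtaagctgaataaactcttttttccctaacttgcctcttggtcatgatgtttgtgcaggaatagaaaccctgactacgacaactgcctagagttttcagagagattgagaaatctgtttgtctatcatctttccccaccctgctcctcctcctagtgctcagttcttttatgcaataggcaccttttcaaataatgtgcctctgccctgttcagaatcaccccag
The Cyp8b1 window holds CAAAGTCCA starting 67 bases and TATAAA starting 31 bases before the gene start, motifs found in 0.475% and 13.6% of 32851 mouse promoter windows. The Akr1d1 window holds AGGTCA on the minus strand at 232 and 210 bases before the start, a motif found in 16.3% of windows. The motifs AGGTCA, CAAAGTCCA and TATAAA were not found in the windows of Cyp27a1, Hsd3b7 or Acox2. A match of letters is a description of the window and not of a bound site.

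Cyp27a1, which starts the alternative route and also oxidises the side chain in the classical route, lay slightly higher in most treated livers. Log2 levels of Cyp27a1 were 12.66, 12.75, 12.57, 12.70 and 12.55 in phenobarbital replicates 1 to 5, against 12.37, 12.51, 12.45, 12.71 and 12.38 in the controls. All 5 treated livers lay above 4 of the 5 controls, and control replicate 4 lay among the treated ones. Its log2 change was 0.16 (95% confidence interval -0.003 to 0.33, limma adjusted p = 0.149). Without control replicate 4 it was 0.22 and passed (adjusted p = 0.0317), and with the spike-in set as a block it was -0.06 (adjusted p = 0.851). A second probe set of Cyp27a1 stayed between 3.01 and 3.28 in treated and 3.08 and 3.21 in control livers, under the lower quartile of each array, and says little about the gene.

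Cyp7b1, the oxysterol hydroxylase of the alternative route, was lower in treated livers as a group, with animals that differed widely. Its log2 level was 12.80, 12.23, 12.14, 12.44 and 12.90 in phenobarbital replicates 1 to 5, against 12.87, 12.67, 13.28, 13.18 and 13.01 in the controls. Phenobarbital replicates 2, 3 and 4 lay below every control, while replicates 1 and 5 lay within the range of the controls. The log2 change was -0.50 ± 0.15 (SE; 95% confidence interval -0.83 to -0.17; limma adjusted p = 0.0371). A second probe set of Cyp7b1 had log2 levels of 12.06, 11.45, 11.19, 11.63 and 12.21 in treated livers, against 12.29, 12.05, 12.79, 12.48 and 12.41 in controls. It ranked the treated livers in the same order and had a log2 change of -0.70 (95% confidence interval -1.10 to -0.30, adjusted p = 0.0222), on a type of probe set that can match several transcripts. One further probe set lay at 3.06 to 3.19 in treated and 2.99 to 3.23 in control livers, under the lower quartile of each array. Counted over all probe sets singly, where 18.7% passed, the 2 brighter probe sets of Cyp7b1 were called.

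The call of Cyp7b1 rested on most of the animals together. Leaving out any of control replicates 1, 3, 4 and 5 or of phenobarbital replicates 2, 3 and 4 ended it, with log2 changes over all 10 omissions of -0.60 to -0.41 and adjusted p of up to 0.0928. It was also lost with trend and robust variance (adjusted p = 0.0705). With the spike-in set as a block the log2 change was -0.68, and it did not pass (adjusted p = 0.301, unadjusted p = 0.0276).

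**Figure D2:**
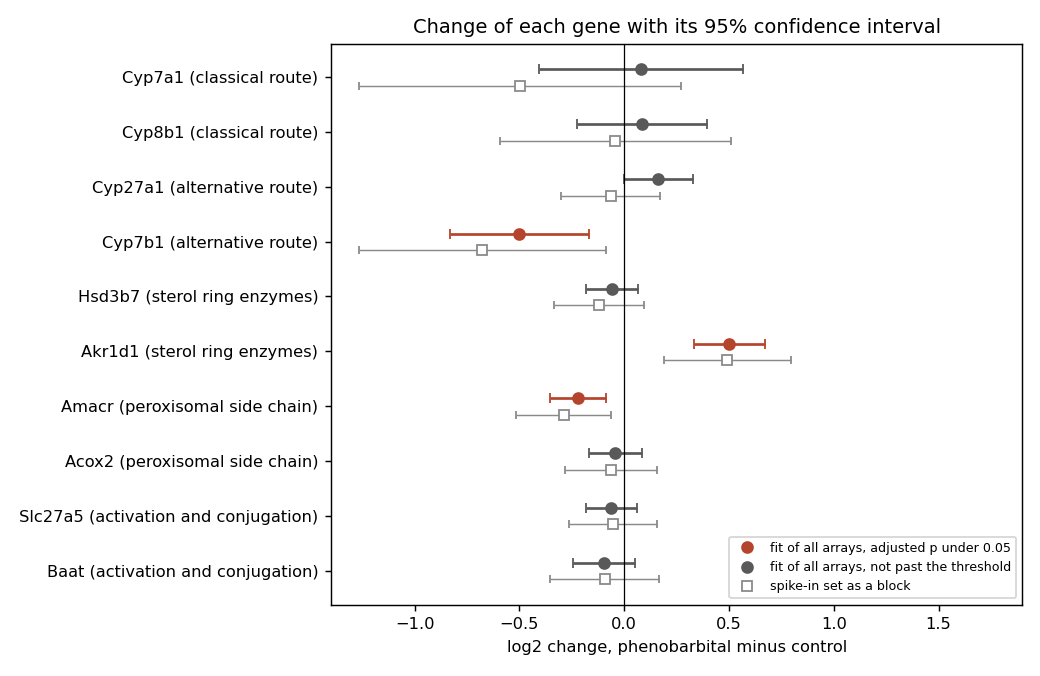
Log2 change of each gene, phenobarbital minus control, with its 95% confidence interval (horizontal axis, log2 units). Filled circles are the limma fit of all 10 arrays, coloured where the adjusted p was under 0.05, and open squares the fit with the spike-in set as a block. The 3 coloured genes lie on the same side of 0 in both fits, while Cyp7a1, Cyp8b1 and Cyp27a1 change sides.

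The routes were set against each other within each liver, as the mean log2 value of Cyp7a1 and Cyp8b1 minus that of Cyp27a1 and Cyp7b1. As probe sets differ in brightness, the value of a liver has no meaning by itself and is read only against the other livers. The difference was -1.88, -1.04, -1.39, -1.75 and -2.35 in phenobarbital replicates 1 to 5, against -1.73, -1.94, -1.99, -1.78 and -2.23 in the controls. Phenobarbital replicates 2 and 3 lay above every control and replicate 5 below every control. The group means were -1.68 ± 0.49 in treated and -1.93 ± 0.20 in control livers (SD, n = 5 each), a shift of 0.25 that was smaller than the spread between treated livers. It came with a log2 change of -0.50 in Cyp7b1, while Cyp7a1, Cyp8b1 and Cyp27a1 had 0.08, 0.09 and 0.16 and did not pass. The shift was 0.15 with the mean of probe sets, 0.09 without phenobarbital replicate 2 and 0.42 without phenobarbital replicate 5. With the spike-in set as a block it was 0.10, and with the spike-in mean as a covariate 0.32.

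Against all controls, the genes of the alternative route parted, while those of the classical route kept their distance on average. Within the alternative route, the log2 value of Cyp27a1 minus Cyp7b1 averaged 0.14 ± 0.37 in treated and -0.52 ± 0.25 in control livers (SD, n = 5 each). Cyp7b1 was lower, and Cyp27a1 lay slightly higher but did not pass. Within the classical route, Cyp8b1 minus Cyp7a1 averaged 2.39 ± 0.33 in treated and 2.38 ± 0.33 in control livers. Against control replicate 4 alone the shifts were 0.61 within the alternative and 0.46 within the classical route. Cyp7a1 minus Cyp7b1, the ring hydroxylases of either route, averaged -2.80 ± 0.74 in treated and -3.38 ± 0.34 in control livers, a shift of 0.58, which was 0.18 against control replicate 4 alone. Its values were -3.16, -1.80, -2.31, -3.08 and -3.65 in phenobarbital replicates 1 to 5, and -3.88 to -2.98 in controls, so that only phenobarbital replicates 2 and 3 lay outside the controls.

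**Figure D3:**
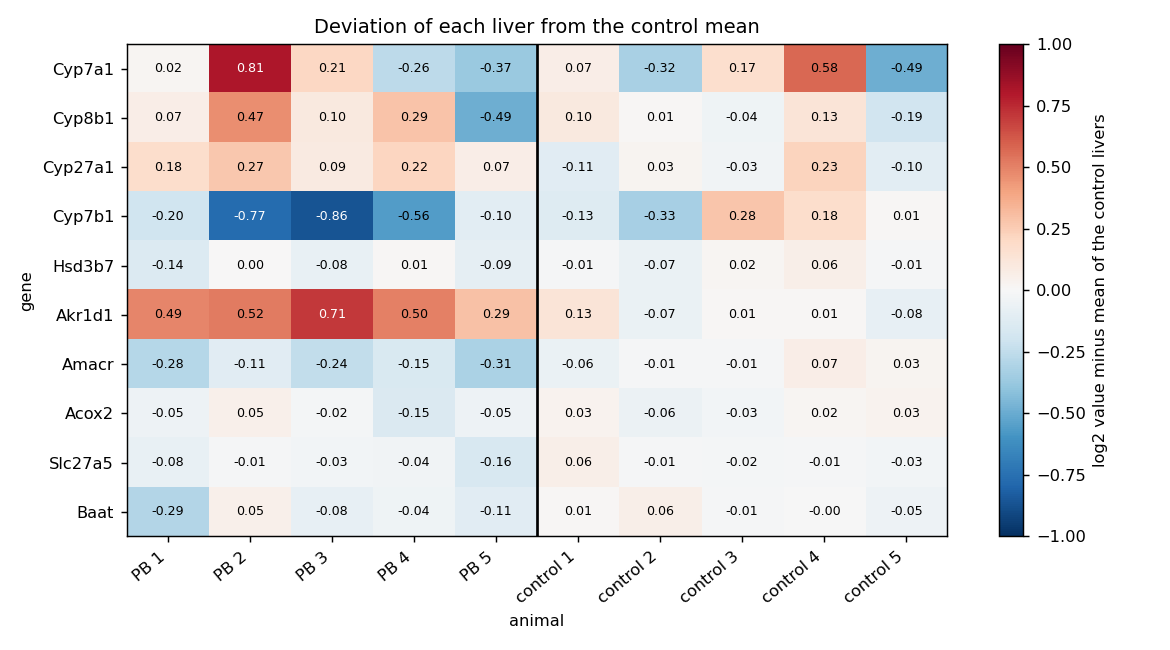
Log2 value of each gene (rows) in each liver (columns, phenobarbital left of the line and control right of it) minus the mean of the control livers, as a colour from -1 to 1 and as a number. Akr1d1 was above the control mean in all 5 treated livers and Amacr and Cyp7b1 below it, while Cyp7a1 and Cyp8b1 were highest in phenobarbital replicate 2 and, among the treated livers, lowest in replicate 5.

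Among the ring enzymes that both routes share, Akr1d1 rose and Hsd3b7 did not pass the test. Akr1d1 is the reductase that saturates the steroid ring and so gives bile acids their bent shape. Its log2 level was 11.07, 11.10, 11.29, 11.08 and 10.87 in phenobarbital replicates 1 to 5, against 10.71, 10.51, 10.59, 10.59 and 10.50 in the controls. Every treated liver lay above every control, and control replicate 4 lay among the other controls. The log2 change was 0.50 ± 0.08 (SE; 95% confidence interval 0.33 to 0.67; limma adjusted p = 0.00163), and the call held in all 10 omissions of an animal, with 0.45 to 0.56. With the spike-in set as a block the log2 change was 0.49 and did not pass (adjusted p = 0.145, unadjusted p = 0.0041). A second probe set of Akr1d1 had log2 levels of 10.72, 10.80, 10.90, 10.85 and 10.79 in treated livers, against 10.43, 10.67, 10.99, 10.47 and 10.35 in controls. There control replicate 3 was above all treated livers, and the log2 change of 0.23 did not pass (95% confidence interval -0.003 to 0.46, adjusted p = 0.153). The size of the rise thus differed between the probe sets.

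Hsd3b7, the dehydrogenase that acts on the ring after its hydroxylation, was nearly level. Its log2 value lay between 13.29 and 13.44, with a median of 13.35, in treated livers and between 13.36 and 13.49, with a median of 13.42, in controls. Its log2 change was -0.06, with a 95% confidence interval of -0.18 to 0.07 (limma adjusted p = 0.505).

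Of the peroxisomal side chain enzymes, Amacr fell by a small amount and Acox2 did not pass. Amacr is the racemase that turns side chain intermediates into the form that the oxidases accept. Amacr had log2 levels of 11.46, 11.63, 11.50, 11.59 and 11.43 in phenobarbital replicates 1 to 5, against 11.68, 11.73, 11.73, 11.81 and 11.77 in the controls. Every treated liver lay below every control, with a gap of a few hundredths between the nearest animals. This was a log2 change of -0.22 ± 0.06 (SE; 95% confidence interval -0.35 to -0.09; limma adjusted p = 0.0242). The call was lost after centring each array on its median (-0.19, adjusted p = 0.0537) and without phenobarbital replicate 1 or 5 (-0.21 and -0.20, adjusted p = 0.053 and 0.0581). With the spike-in set as a block the value was -0.29 (adjusted p = 0.254, unadjusted p = 0.0172).

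Acox2, the oxidase that takes up the branched side chain next, lay between 11.67 and 11.87 in treated livers and between 11.76 and 11.85 in controls. The groups overlapped, and the log2 change was -0.04 (95% confidence interval -0.17 to 0.08, limma adjusted p = 0.644).

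The enzymes of activation and conjugation did not pass the test, and their intervals were narrow. Slc27a5, which attaches coenzyme A to bile acids, had log2 levels of 13.46, 13.53, 13.51, 13.50 and 13.38 in treated livers, against 13.60, 13.53, 13.52, 13.53 and 13.51 in controls. Phenobarbital replicate 5 was the lowest and control replicate 1 the highest, with the others close together. The log2 change was -0.06 (95% confidence interval -0.18 to 0.06, limma adjusted p = 0.461). Baat, which joins the bile acyl group to taurine or glycine, had log2 levels of 10.93, 11.27, 11.14, 11.18 and 11.11 in treated livers, against 11.23, 11.28, 11.21, 11.22 and 11.17 in controls. Only phenobarbital replicates 1, 3 and 5 lay below the controls, and the log2 change was -0.10 (95% confidence interval -0.24 to 0.05, limma adjusted p = 0.34). A dimmer probe set of Baat gave 0.08 (95% confidence interval -0.06 to 0.22, adjusted p = 0.434), with the opposite sign, so no direction can be given for this gene.

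The members differed in how steady they were between animals. The SD was under 0.1 in both groups for 4 of the 10 genes, Hsd3b7, Amacr, Acox2 and Slc27a5, all of them in shared steps. The other genes of shared steps, Akr1d1 and Baat, had 0.15 and 0.13 in treated and 0.08 and 0.04 in control livers. How many of all genes lie under this limit was not counted. The largest SDs were those of Cyp7a1, 0.47 in treated and 0.42 in control livers, and those of Cyp7b1 were 0.34 and 0.24.

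Of 16 measured genes for other enzymes and helper proteins of bile acid synthesis (among the latter Star, Pex5, Abcd3 and Fdx1) 2 were higher and 1 lower, with a median log2 change of -0.05. This was 18.8% called, near the 20.3% of all genes and under the 29% of the brighter genes. Slc27a2, an acyl-CoA synthetase of peroxisomes and the endoplasmic reticulum, averaged 13.39 ± 0.07 in treated and 13.77 ± 0.15 in control livers (SD, n = 5 each), a log2 change of -0.38 (adjusted p = 0.00582) with separate groups and -0.16 with the spike-in set as a block. Cyp2a12 and Star were called higher at 0.18 and 0.23, and lost the call with the block, at 0.09 and 0.12. Cyp39a1, another oxysterol hydroxylase, and Cyp2c70, which makes the muricholic acids of mice, had log2 changes of -0.25 and 0.10 and did not pass (adjusted p = 0.248 and 0.263).

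Among regulators of bile acid synthesis 7 of 22 measured genes were called lower and none higher, and by sign 14 were lower, with a median log2 change of -0.13. This was 31.8% called, all lower, beside 11.3% of all genes called lower. In either direction, 20.3% of all genes and 29% of the brighter genes, fitted alone, were called. Most of the list lay in the brighter part, but the share of brighter genes called lower was not counted. As the list was chosen with earlier results of these data known, its share is not a test of the list. Nr5a2, the nuclear receptor LRH-1 that drives Cyp7a1 and Cyp8b1, averaged 9.59 ± 0.27 in treated and 9.97 ± 0.10 in control livers (adjusted p = 0.033). Fgfr4 and Klb, the receptor and co-receptor of the gut hormone FGF15 on hepatocytes, had log2 changes of -0.25 and -0.33 (adjusted p = 0.02 and 0.0374), and -0.33 and -0.02 with the spike-in set as a block. Prox1, a repressor partner of LRH-1 and HNF4A, had a log2 change of -1.70, with levels of 6.39, 6.95, 6.73, 6.65 and 7.01 in treated livers, against 8.69, 8.29, 9.21, 7.14 and 8.92 in controls. The other regulators called lower were Ppargc1a (-1.42), Ppara (-0.87) and Foxo1 (-0.47), with -0.92, -0.52 and -0.44 under the block. For Prox1, control replicate 4 stood close to the treated livers, and the log2 change with the spike-in set as a block was -0.39. With that block none of the 22 regulators passed. The bile acid receptor Nr1h4 and the factor Hnf4a did not pass, at -0.01 and 0.09.

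Nr0b2, which encodes SHP, the repressor that bile acids induce to shut down Cyp7a1, varied widely between animals. Nr0b2 had log2 levels of 8.17, 9.91, 8.99, 10.41 and 10.50 in phenobarbital replicates 1 to 5, against 9.13, 10.57, 10.19, 9.33 and 9.99 in the controls. The treated livers with the highest Nr0b2, replicates 4 and 5, had the lowest Cyp7a1, but replicate 1, with the lowest Nr0b2, did not have the highest Cyp7a1. Among controls, replicate 2, with the highest Nr0b2, had a low Cyp7a1 of 9.30. Control replicate 5 had the lowest Cyp7a1, 9.13, with a middle Nr0b2, and control replicate 3 was high in both, with a Cyp7a1 of 9.79. A relation between these genes was not tested. The group difference did not pass (log2 change -0.25 ± 0.41 SE, adjusted p = 0.705). Dbp, a clock factor that drives Cyp7a1, had log2 levels of 5.54, 5.94, 6.05, 6.27 and 7.76 in phenobarbital replicates 1 to 5, against 5.85 to 6.41 in controls, so that phenobarbital replicate 5 stood apart. Phenobarbital replicate 5 also had the lowest Cyp7a1 of the treated livers, 9.25. Of other clock genes, it had the lowest Nfil3 (9.80) and the highest Nr1d1 (6.98) of all livers. Its Bhlhe41 (4.93) lay within the controls. The labels used here do not state the hour at which each liver was taken, and a link of these values to the hour or to Cyp7a1 was not tested.

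Among transporters of bile acids and bile lipids 4 of 14 measured genes were higher and 5 lower, with a median log2 change of -0.01. This was 64.3% called, beside 20.3% of all genes and 29% of the brighter genes. As the genes were listed with earlier results of these data known, the share is not a test of the list. The export pumps of the blood side of the hepatocyte rose. Abcc4 averaged 7.58 ± 0.57 in treated and 5.43 ± 0.26 in control livers, and Abcc3 averaged 11.61 ± 0.08 in treated and 10.77 ± 0.13 in control livers (SD, n = 5 each; log2 changes 2.15 and 0.84). These 2 genes also passed with the spike-in set as a block. Slc51a and Slc51b, the subunits of the carrier that lets bile acids out into blood, rose by 0.65 and 0.40 from low levels, with 0.45 and 0.24 under the block, where neither passed. On the bile side, the phospholipid pump Abcb4 fell (-0.37), as did the sterol pumps Abcg5 and Abcg8 (-0.42 and -0.43). With the block Abcb4 had -0.39, Abcg5 -0.19 and Abcg8 -0.11, none passing. The uptake carrier Slco1a1 and the lipid flippase Atp8b1 also fell, with log2 changes of -0.49 and -0.38 (-0.38 and -0.17 with the block, not passing). The bile salt pump Abcb11 and the uptake carrier Slc10a1 did not pass, at 0.09 and 0.06 (adjusted p = 0.49 and 0.452).

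The supply of taurine for conjugation was marked by Csad, which makes its precursor. Csad had log2 levels of 9.45, 8.82, 8.81, 8.75 and 8.61 in treated livers, against 10.56, 11.11, 11.32, 11.49 and 10.27 in controls. All treated livers lay below all controls, with a log2 change of -2.06 ± 0.22 (SE, adjusted p = 9.5e-05) and of -2.60 with the spike-in set as a block, where it also passed. Of the 7 measured genes of taurine and glycine supply 3 were lower and 1 higher. This was 57.1% called, beside 20.3% of all genes and 29% of the brighter genes. The list was chosen with earlier results of these data known, so its share is not a test of the list. Besides Csad, the called genes were Ado (-0.33), Slc6a6 (-0.29) and Shmt2 (0.42). Those calls were lost with the block, at -0.13, -0.14 and 0.002. Cdo1, the enzyme before Csad, did not pass (-0.15, adjusted p = 0.0924). Baat itself, which uses the taurine, had the value given above.

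**Figure D4:**
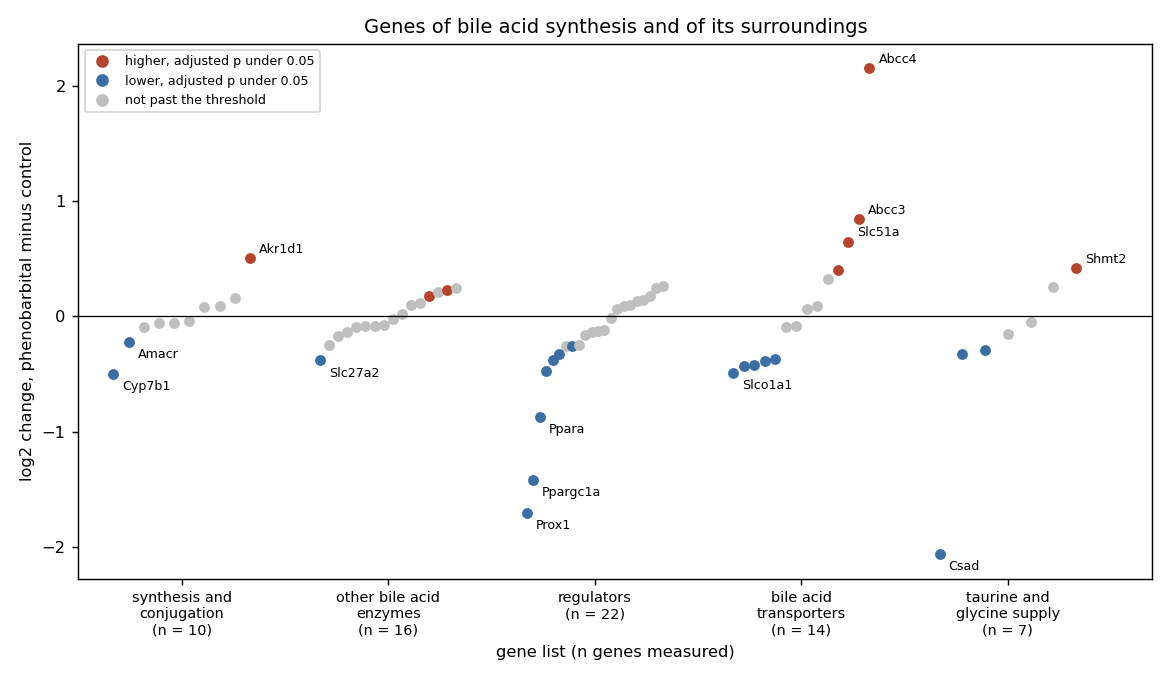
Log2 change, phenobarbital minus control, of each measured gene (points, sorted within a list) for the 10 genes of synthesis and conjugation and for the 4 surrounding lists. Red points were called higher and blue points lower at a limma adjusted p under 0.05, and grey points did not pass. The 10 enzymes stay between -0.50 and 0.50, while Abcc4, Abcc3 and Slc51a lie above and Csad, Prox1, Ppargc1a and Ppara below that range.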

How the data were processed

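Gene expression was measured in whole liver of 10 mice, 1 array each. RNA was labelled from 0.1 µg by a 3' in vitro transcription assay, per the labels' protocols, so values read the 3' ends of transcripts. The authors deposited log2 expression values with no method of summarising or normalising given in the sources used here, and GCOS is named in the submitters' processing notes. The log2 scale was read from their range (2.34 to 15.13). They were used as deposited, since their quartiles lay within 0.16 of each other across arrays, and no filter was set on low values.

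Probe sets with a single symbol in the platform annotation (34945, besides 932 with several) gave 18193 genes, each read from its brightest probe set. Groups were compared with limma 3.58.1 (R 4.3.3; linear fit with moderated variance, two-sided, Benjamini-Hochberg over all genes, adjusted p under 0.05); the fit was tested on simulated data. The named genes are the 10 members and listed pathway genes, of which those called or at most 4 a list are given, with exceptions for Nr1h4, Hnf4a and genes whose values stand beside a member. Members and lists were chosen with earlier results of these data known. Some listed genes, such as Fdxr, Por and Sds, were not analysed here. Arrays were divided into spike-in sets at the largest gap in the mean of 24 poly-A probe sets. The share of the brighter genes is from a fit of those 9095 genes with its own Benjamini-Hochberg adjustment. The shares of the gene lists use the adjustment over all genes. The number of arrays limits the precision. Figures were drawn with matplotlib 3.10.9.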

Additional observations from a re-analysis of the deposited data

Results flagged for a closer look

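Control replicate 1 stood apart from the other controls for Slc27a5, at 13.6 against 13.51 to 13.53 in the other 4, a gap of 0.78 of the whole range, above the 0.71 allowed for 5 samples. It was the only such sample in 34 groups of values checked (the 16 member probe sets and the route difference in either group), where chance gives about 1 in 20. The distance itself is under 0.1 on the log2 scale.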

How the results depend on the processing

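Of 208 values of single members under the alternatives, 179 kept their sign and their side of the threshold, 17 lost the call and 1 gained it, and 11 turned their sign, all 11 in genes that had not passed. With the spike-in set as a block and with the spike-in mean as a covariate 0 members were called, 0 higher and 0 lower, and 143 and 129 of all genes. Lower calls numbered 1 after median centring and 1 with trend and robust variance. Leaving out an animal gave 1 to 2 lower and 1 to 2 higher members and 2431 to 4610 genes. The sign turned for Cyp7a1 with the mean of probe sets (-0.097), with the block (-0.498), with the covariate (-0.213), without control replicate 2 (-0.0005) or 5 (-0.043) and without phenobarbital replicate 2 (-0.102, the lowest of the omissions, which reached 0.2245). It turned for Cyp8b1 with the block (-0.042) and without phenobarbital replicate 2 (-0.0095, with up to 0.2305 in the other omissions), for Cyp27a1 with the block (-0.064) and the covariate (-0.02), and for Baat on its single-transcript probe set (0.078). The cause was not tested. The replicate numbers name different animals, whose deviations correlated between -0.02 and 0.12, and with the replicate block 3 members and 3664 genes passed. Hsd3b7 and Acox2 have no single-transcript probe set, and so no value there. No alternative planned was left out.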
